A study of Homo sapiens with 17 samples.

Results

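The SOX lineage genes other than *SOX2* were described across naive and primed human pluripotent stem cells (PSCs) by the interactions of their promoters and by the H3K4me1 of the fragments at both ends. The members are 8 genes: *SOX1*, *SOX8*, *SOX9*, *SOX10*, *SOX11*, *SOX14*, *SOX17* and *SOX21*. The deposited interaction lists name no genes, so a member was assigned to a HindIII fragment through its GENCODE release 44 promoter, which reaches from a transcript start to 1000 bp upstream. By this rule 6 of 8 members had a baited fragment in the lists, 6 of 15982 listed baits, and these baits had 70 partner fragments among the 88413 listed fragments. The promoter fragments of *SOX8* and *SOX10* were in neither list, and their interactions were therefore not analysed here.

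Naive PSCs were of the human embryonic stem cell line H9 NK2 and were grown in t2iL+PKCi, a medium with PD0325901, CHIR99021, LIF and Go6983, on Matrigel. Primed PSCs were of the same line and were grown in TeSR-E8 on Vitronectin. All cells carried the same parental genome, and both states thus came from 1 line. Promoter Capture Hi-C (PCHi-C), which enriches ligated DNA pairs for promoter fragments, gave 1 list of interactions per state from 2 combined replicates. Hi-C gave 1 library per state, and H3K4me1 was profiled by CUT&RUN, in which an antibody directs a nuclease to the marked chromatin, in 2 naive and 3 primed libraries. The samples were bulk cultures, so that a change in every cell and a change in the share of cells cannot be told apart.

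SOX proteins are transcription factors that bind DNA through a high mobility group box. *SOX1*, a SOXB1 factor, is known for its role in neural progenitors, and the SOXB2 factors *SOX14* and *SOX21* act there mainly as repressors. *SOX11*, of the SOXC group, acts in differentiating neurons. *SOX8*, *SOX9* and *SOX10* form the SOXE group of the neural crest, and *SOX9* also directs cartilage formation. *SOX17*, of the SOXF group, is a factor of definitive endoderm and of primordial germ cells. *SOX9* and *SOX11* lie in gene deserts, long stretches with no protein-coding gene that can hold distal enhancers, and H3K4me1 is a histone mark of active and poised enhancers.

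The naive list held 79330 interactions and the primed list 88985, each with a CHiCAGO score of at least 5. This score rises with the excess of reads over the background at that distance. The reads given for a PCHi-C interaction are the combined and rounded number of 2 replicates, not raw reads. The H3K4me1 libraries held 6.74 M to 26.6 M reads and left 15.3% to 52.3% of 500 bp tiles empty, with naive replicate 2 as the shallowest. Their values are log2 RPM, the reads of a tile scaled to the mapped reads of the library. The libraries of one state correlated with r of 0.82 to 0.93, against 0.26 to 0.31 between states. These correlations cover the 33746 listed fragments with a tile above 0 log2 RPM in at least 2 libraries, a filter that favours fragments high in one state. As a check of the labels, 3 of 4 baits of naive state markers, those of *DPPA5*, *DPPA3* and *SUSD2*, had higher H3K4me1 in naive PSCs, while none of 5 baits of primed state markers differed by the same test. Within 1 kb of the transcript start, 2 of 6 naive state markers had both naive libraries above all primed libraries. Among the primed state markers, 4 of 6 showed that same order and 1 of 6 the opposite one, so promoter H3K4me1 did not follow the label for that list.

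A few promoter-interacting regions stand for the interactions described here. Each line gives 300 bases of GRCh38, plus strand, from the fragment without a bait that had the highest score with that promoter. The window is the middle of the 500 bp tile with the highest mean H3K4me1 in that fragment, or the middle of the fragment where no tile lay inside it. Capitals mark an octamer motif of POU factors (ATTTGCAT) or a SOX core (ACAATG or ACAAAG), searched on both strands. The *SOX1* region is chr13:111533101-111533400 in intergenic DNA, the *SOX9* region is chr17:72539101-72539400 in an intron of the non-coding *LINC00511*, the *SOX14* region is chr3:137109203-137109502 in intergenic DNA, and the *SOX21* region is chr13:95155601-95155900 in an intron of *ABCC4*.
*SOX1* region: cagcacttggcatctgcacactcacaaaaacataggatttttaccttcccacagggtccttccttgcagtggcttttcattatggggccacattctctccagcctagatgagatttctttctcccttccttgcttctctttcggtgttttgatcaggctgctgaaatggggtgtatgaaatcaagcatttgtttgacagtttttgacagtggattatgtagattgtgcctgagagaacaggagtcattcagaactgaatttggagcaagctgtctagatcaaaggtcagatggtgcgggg
*SOX9* region: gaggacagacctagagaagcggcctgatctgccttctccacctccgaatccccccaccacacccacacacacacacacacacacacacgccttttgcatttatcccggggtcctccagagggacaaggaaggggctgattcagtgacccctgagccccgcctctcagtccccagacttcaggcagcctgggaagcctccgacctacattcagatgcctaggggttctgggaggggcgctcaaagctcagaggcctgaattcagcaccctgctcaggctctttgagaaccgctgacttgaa
*SOX14* region: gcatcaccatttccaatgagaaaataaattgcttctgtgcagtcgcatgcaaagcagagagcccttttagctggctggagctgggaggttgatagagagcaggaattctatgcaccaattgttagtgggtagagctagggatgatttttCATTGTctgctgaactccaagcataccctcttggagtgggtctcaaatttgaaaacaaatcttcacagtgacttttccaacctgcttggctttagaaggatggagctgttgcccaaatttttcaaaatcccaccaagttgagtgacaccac
*SOX21* region: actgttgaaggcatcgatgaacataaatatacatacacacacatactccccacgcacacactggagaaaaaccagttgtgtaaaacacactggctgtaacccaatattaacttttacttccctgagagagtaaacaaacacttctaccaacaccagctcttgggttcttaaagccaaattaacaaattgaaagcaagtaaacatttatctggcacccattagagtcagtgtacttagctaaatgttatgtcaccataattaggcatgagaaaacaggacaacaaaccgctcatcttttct
The *SOX14* window held 1 match, to ACAATG on the minus strand, and the other windows held no match to these letters. Of 85401 windows taken by the same rule from all listed fragments, 16.4% held ACAATG, 23.2% ACAAAG and 2.71% the octamer.

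The members made 21 interactions in naive and 67 in primed PSCs, a ratio of 3.19 with a 95% interval of 1.93 to 5.49 from counting error. Over all listed baits the same ratio was 1.12. There is 1 list per state, so these differences have no replicate check and no test. Of 6 member baits, 5 had at least 2 times as many interactions in primed PSCs, against 29.5% of all baits, and 0 had at least 2 times as many in naive PSCs, against 31.7% of all baits. *SOX21* had 10 interactions in naive and 28 in primed PSCs, *SOX17* had 4 and 18, and *SOX1* had 2 and 14. *SOX14* had 1 and 3, *SOX11* had 0 and 1, and *SOX9* alone had fewer in primed PSCs, with 4 and 3. In the order of all baits, *SOX21* had more primed interactions than 96.1% of them, *SOX17* than 90.9% and *SOX1* than 86.7%. With CHiCAGO scores of at least 10, the members kept 3 naive and 25 primed interactions, and without *SOX21* the ratio over all members was 3.55. The ratio over all baits was not taken at scores of at least 10.

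**Figure D1:**
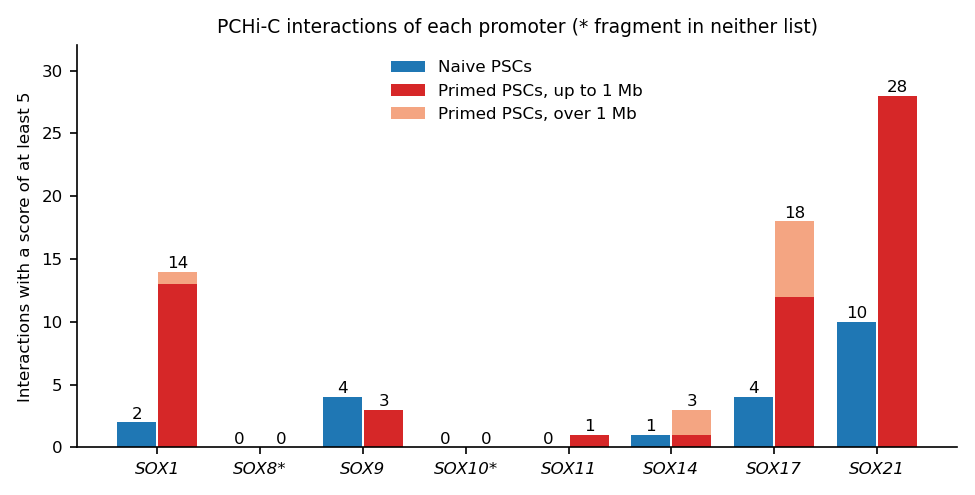
Number of PCHi-C interactions (y axis) of each member's promoter (x axis) in naive and primed PSCs, 1 list per state. The largest primed counts are the 28 of SOX21, 18 of SOX17 and 14 of SOX1, and the lighter part of a bar gives interactions over 1 Mb, which no member had in naive PSCs; SOX8 and SOX10 were in neither list.

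Most naive interactions of these promoters were also listed in primed PSCs, while most primed ones were not listed in naive PSCs. Of 21 naive interactions, 18 were also listed in primed PSCs (85.7%, Wilson 95% interval 65.4% to 95%), where the share over all baits was 49.6%. Of 67 primed interactions, the same 18 were listed in naive PSCs (26.9%, 17.7% to 38.5%), where the share over all baits was 44.2%. Allowing ends to lie up to 10 kb from those of an interaction of the other state, 37 of 67 primed interactions had a naive counterpart. The share over all baits was not taken with that allowance, so 44.2% cannot be set beside this count. Neighbouring fragments of one bait are not independent, so the intervals understate the error. Of the 70 partner fragments, 24 were intergenic, 22 lay within introns and 24 overlapped an exon of a coding or non-coding gene.

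*SOX21* had the most interactions, in a pair of blocks on the side of higher coordinates, which is upstream of this minus-strand gene at chr13:94709622-94712545. Distances run from the transcript start to the middle of the partner fragment and are positive towards higher coordinates. The near block, chr13:94894691-95004170, held 18 fragments at 183.5 to 291.4 kb, of which 7 were listed in naive and 18 in primed PSCs. Its reads summed to 122 in naive and 421 in primed PSCs over the listed pairs. Its highest scores were 10.8 for the fragment at 244.7 kb in naive PSCs and 18.56 for the fragment at 256.7 kb in primed PSCs. The far block, chr13:95127945-95188076, lay within *ABCC4*, a gene of a membrane transporter, and had 3 fragments listed in naive and 10 in primed PSCs. The fragment at 442.9 kb had a score of 7.94 from 12 reads in naive PSCs and of 24.31 from 32 reads in primed PSCs. Both blocks were thus present in naive PSCs and were listed with more fragments and higher scores in primed PSCs.

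*SOX17*, at chr8:54457935-54460892, had a block of interactions in both states and 2 further groups listed in primed PSCs only. The block in both states, chr8:54149267-54178332, lay at -306.8 to -282.2 kb, in the stretch that ends at *MRPL15*, a mitochondrial ribosomal protein gene and the next coding gene on that side. It held 4 fragments listed in naive and 6 listed in primed PSCs. Its fragment at -289.8 kb had a score of 12.45 from 35 reads in naive PSCs and of 28.08 from 57 reads in primed PSCs. The first group listed in primed PSCs only covered 6 fragments at *RGS20*, which codes for a regulator of G protein signalling, at -608.7 to -566.9 kb. Their scores ran up to 19.0. The second group comprised 6 fragments over 1 Mb away, described with the other long interactions.

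*SOX1*, at chr13:112067149-112071706, had 2 interactions in both states, at -14.9 kb, close to the bait but not adjacent to it, and at 375.7 kb. The fragment at 375.7 kb had a score of 5.03 in naive and 9.22 in primed PSCs. In primed PSCs, 5 intergenic fragments at -558.1 to -525.1 kb were added, with 99 reads in all. Among them the fragment chr13:111529920-111535982 had the highest score of any member interaction, 33.33 from 36 reads, and its neighbour at -528.3 kb had 28.89 from 32 reads. The *SOX1* window printed above lies in the first of these fragments.

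*SOX9*, *SOX11* and *SOX14* had few interactions. *SOX9*, at chr17:72121020-72126416, interacted in both states with a pair of fragments at 418.5 and 419.8 kb, in an intron of *LINC00511*. The first, chr17:72539024-72540027, had a score of 8.44 from 11 reads in naive PSCs and of 14.11 from 21 reads in primed PSCs. In naive PSCs, *SOX9* also interacted with fragments at 309.8 and 322.7 kb that overlap exons of *LINC00511*, with scores of 7.02 and 5.65. In primed PSCs only, it also interacted with the fragment at 417.7 kb, beside the shared pair, with a score of 5.65. *SOX11*, at chr2:5692384-5701385, had 0 naive interactions and 1 primed interaction, with an intergenic fragment at -322.2 kb, a score of 5.9 and 14 reads. *SOX14*, at chr3:137764315-137766334, interacted at about the same place in both states but with neighbouring fragments, at -655.0 kb in naive PSCs with a score of 10.27 and at -656.4 kb in primed PSCs with a score of 7.3.

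**Figure D2:**
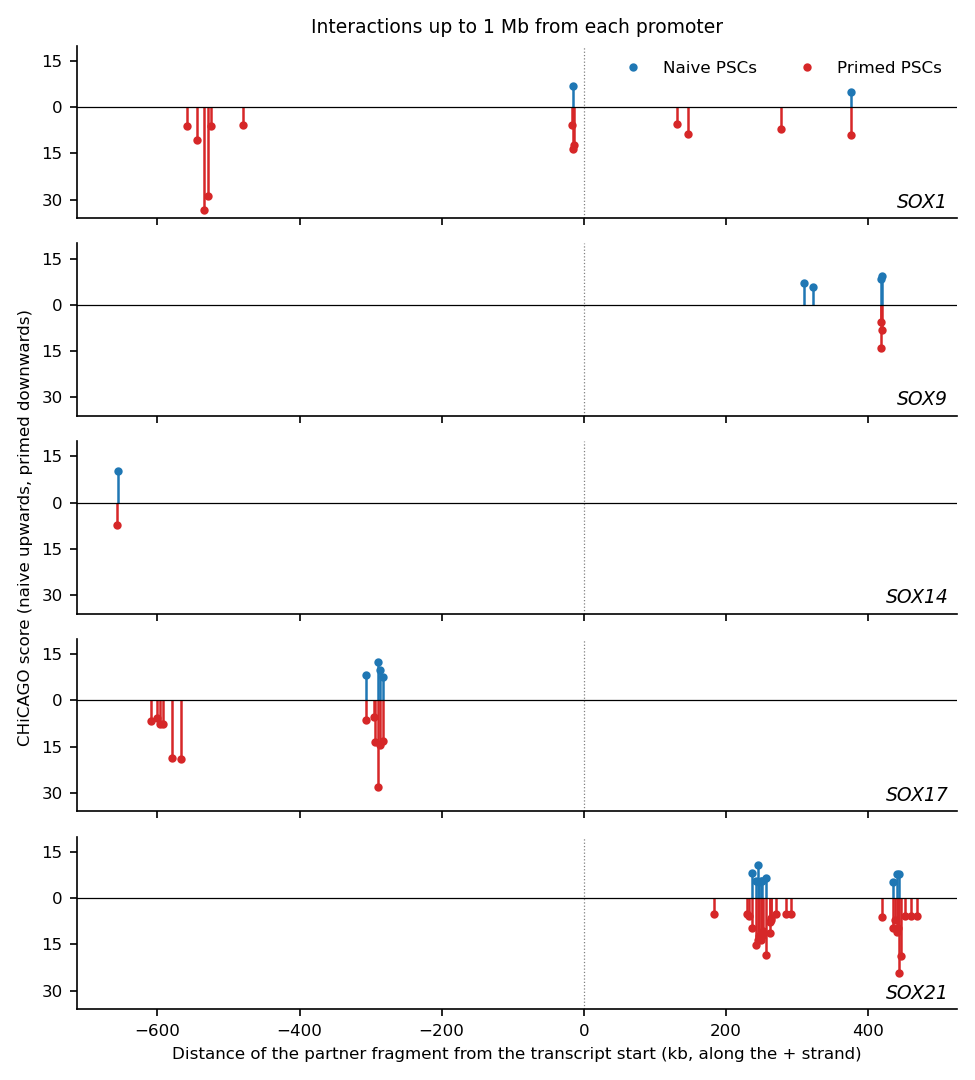
CHiCAGO score (y axis, naive upwards and primed downwards) of each interaction against the distance of the partner fragment's middle from the transcript start (x axis, kb), for interactions up to 1 Mb; the 9 primed interactions over 1 Mb and the single one of SOX11 are not drawn. SOX17 and SOX21 have blocks in both states, whereas the SOX1 block near -534.2 kb with a score of 33.33 appears in primed PSCs only.

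Interactions over 1 Mb were listed for the members in primed PSCs only. There were 9 of 67 in primed (13.4%, Wilson interval 7.23% to 23.6%), where the share over all cis interactions was 6.75%, and 0 of 21 in naive PSCs, which allows a share of up to 14.3%, where the share over all was 1.69%. They belonged to 3 of 6 member baits, against 9.73% of all baits with such an interaction in primed and 3.55% in naive PSCs. No member interaction joined different chromosomes. Of the 9 partner fragments, 8 held a promoter, of 1 or more genes. *SOX14* interacted with the fragment of *FOXL2*, a forkhead gene of the ovary and eyelid, 1.18 Mb away with a score of 10.35, and with the nearby fragment of the non-coding *LINC01391* with a score of 6.17. *SOX17* interacted with *ALKAL1*, a ligand gene of the *ALK* receptor, 1.90 Mb away with a score of 8.25, and with the fragment of *NPBWR1*, a neuropeptide receptor gene, with a score of 8.88. A nearby fragment that held no promoter had a score of 9.03. *SOX17* also interacted with the promoter of *MIR124-2*, a neuronal microRNA gene, 9.92 Mb away, over a pair of fragments with scores of 7.23 and 5.42. Its longest interaction was with the fragment of *OSR2* and *STK3*, 44.49 Mb away, with a score of 8.65. *SOX1* interacted with *PDX1*, the homeobox gene of the pancreas, at a distance of 84.15 Mb with a score of 11.37. The read numbers of these 9 interactions were low, from 4 to 10, and 1 of the 9 had at least 10 reads.

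The Hi-C counts of 100 kb bins gave a second view of these pairs, although the PCHi-C libraries were captured from Hi-C material and the assays are therefore not fully independent. The listed contacts summed to 31310843 in the naive and 52056334 in the primed Hi-C file. The primed Hi-C library held 14 contacts between the bins of *SOX17* and *MIR124-2*, where the mean of all bin pairs on chromosome 8 at that distance was 1.10, a ratio of 12.7 (exact Poisson interval 6.95 to 21.3). Between *SOX17* and *OSR2* it held 4 contacts and a ratio of 17.0 (4.64 to 43.6), and between *SOX1* and *PDX1* it held 3 contacts and a ratio of 44.6 (9.20 to 130.4). Over these 3 bin pairs the ratio was 15 (9.26 to 22.9), and it was 12.3 after correction for the coverage of the bins. By pair, this correction moved the ratio from 44.6 to 332.4 for *PDX1*, from 12.7 to 9.47 for *MIR124-2* and from 17.0 to 18.1 for *OSR2*. Below 5 Mb the ratios were smaller, 1.79 for *ALKAL1*, 1.79 for *NPBWR1* and 0.98 for *FOXL2*, whose interval of 0.63 to 1.46 includes 1. After correction they were 2.74, 2.19 and 1.37. The naive Hi-C file leaves out pairs within a chromosome that have few contacts, and 0 of these 6 bin pairs were listed in it, so no naive value can be set beside them.

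Up to 1 Mb both Hi-C files listed all 13 bin pairs, and their naive counts were scaled here to the primed total of listed contacts. The naive total lacks the pairs left out of that file, so the scaled naive counts are upper estimates. The primed count was above the scaled naive count in 3 of 13 pairs and below it in 10, with ratios from 0.53 to 1.19. For *SOX1* and its block near -534.2 kb, which PCHi-C listed in primed PSCs only, the counts were 79 in naive and 137 in primed PSCs, and the scaled naive count was 131.3. For the *RGS20* block of *SOX17* the counts were 72 and 139, and the scaled naive count was 119.7. For the near block of *SOX21* they were 368 and 514, with 611.8 after scaling, and for *SOX9* and its partner region around 418.5 kb 136 and 172, with 226.1 after scaling. For *SOX11* and its partner region they were 150 and 297, with 249.4 after scaling. For the block of *SOX17* listed in both states they were 145 and 176, with 241.1 after scaling. For the *ABCC4* block of *SOX21* they were 165 and 199, with 274.3 after scaling. Primed counts were thus above the scaled naive ones for the *SOX1* block, the *RGS20* block and *SOX11* (ratios of 1.04, 1.16 and 1.19). At the other regions named here the primed count was the lower one. As the scaled naive counts are upper estimates, these ratios cannot show that contact was not higher in primed PSCs.

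The ratios of these primed counts to the mean at that distance depended on the coverage of the bins. All 4 bin pairs of *SOX1* up to 1 Mb were raised 5.67 to 7.47 times by the correction. That of the block went from 1.46 to 8.29, and those at 200, 300 and 400 kb went from 0.51, 0.53 and 0.57 to 3.02, 3.44 and 4.22. The ratio of the *SOX9* pair at 400 kb went from 3.07 to 1.16, and that of *SOX11* from 2.00 to 1.12. The ratio of the near block of *SOX21* was 2.30 before and 2.37 after correction, and that of the *RGS20* block of *SOX17* was 2.03 and 2.13.

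H3K4me1 was next compared between the states at the baits and partners, as the mean log2 RPM of the tiles of a fragment, with limma over all 88413 listed fragments. A fragment with a Benjamini-Hochberg adjusted p under 0.05 is called higher in one state. Of the 70 partner fragments, 17 (24.3%) were higher in primed PSCs, against 9.81% of all listed fragments, and 10 (14.3%) were higher in naive PSCs, against 15.2%. The median difference over the 70 was -0.01, and over all listed fragments -0.06. Among the 49 partners of primed-only interactions, 15 were higher in primed and 4 in naive PSCs. Among the 18 partners in both states, 2 were higher in primed and 5 in naive PSCs, and among the 3 partners of naive-only interactions, 0 and 1. With edgeR on the recovered reads, 18 and 10 of the 70 were called, against 10.4% and 15.2% of all fragments. The counts that follow, without 1 library, have no share over all fragments from the same fit. They cannot be set against the shares above. Without naive replicate 1, 4 of the 70 were higher in primed and 6 in naive PSCs, and without naive replicate 2 these counts were 11 and 6. The 15 and 4 calls of primed-only partners became 4 and 2 without naive replicate 1 and 11 and 3 without naive replicate 2. Of the 2 and 5 calls of partners in both states, 0 and 3 were made without naive replicate 1, 0 and 2 without naive replicate 2, and 0 and 6 without primed replicate 1.

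The mean H3K4me1 over all 70 partners was -1.84 and -1.52 log2 RPM in the naive libraries and -1.37, -1.56 and -1.62 in the primed libraries. The states overlapped, with a difference of 0.16 (exact permutation test over 5 libraries, two-sided p = 0.5, where 10 splits allow no p below 0.1). The mean of the 3 partners of naive-only interactions less that of the 49 partners of primed-only interactions was 0.43 and 0.23 in the naive libraries. In the primed libraries it was -0.45, -0.62 and -0.63. The 2 states did not overlap, and the difference of -0.90 reached the smallest p that the design allows, 0.1 (exact permutation test), with only 3 fragments on the naive side.

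**Figure D3:**
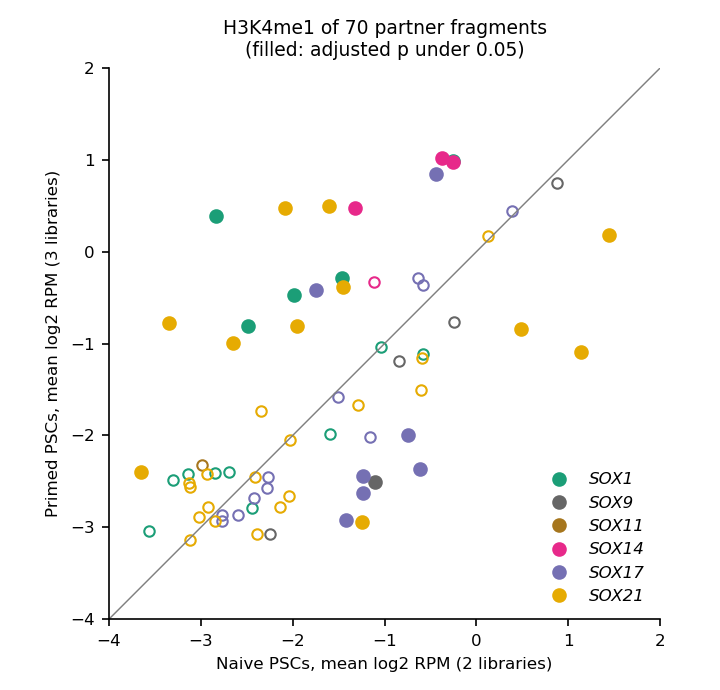
Mean log2 RPM of H3K4me1 in primed PSCs (y axis, 3 libraries) against naive PSCs (x axis, 2 libraries) for the 70 partner fragments, coloured by member, with the diagonal of equal levels and filled points for an adjusted p under 0.05 (limma). The 17 filled points above the diagonal include partners of SOX1, SOX14, SOX17 and SOX21, and the 10 below it are partners of SOX9, SOX17 and SOX21.

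At the baits themselves, 1 of 6 was higher in primed PSCs, that of *SOX1*, against 9.81% of all listed fragments. In naive PSCs 0 of 6 were higher, against 15.2%, and 6 baits are too few to tell these counts from those shares. The *SOX1* bait had -1.61 and -1.52 log2 RPM in the naive and 0.06, -0.25 and -0.45 in the primed libraries, with no overlap and a difference of 1.35 ± 0.36 (SE, limma adjusted p = 0.0030). Without naive replicate 1 or 2 this adjusted p was 0.090 or 0.056. The *SOX14* bait had 0.25 and -0.29 in the naive and 1.18, 0.81 and 0.83 in the primed libraries. Its libraries did not overlap, but the difference of 0.96 ± 0.38 missed the threshold with limma (adjusted p = 0.056) and passed it with edgeR (adjusted p = 0.040) and with the log2 of the mean RPM (limma adjusted p = 0.047). At the baits of *SOX9*, *SOX11*, *SOX17* and *SOX21* the libraries overlapped, and the differences lay between -0.09 and 0.13 with adjusted p from 0.90 to 0.98 (limma). Baits span several kb, so the tiles within 1 kb of the transcript start were also read, which includes *SOX8* and *SOX10*. At *SOX14*, 3 of 5 such tiles were higher in primed PSCs and 0 in naive PSCs, against 25.9% and 26.1% of all tested tiles. At *SOX10* the mean was -1.35 and -1.09 in the naive and -3.27, -1.98 and -2.33 in the primed libraries, with no overlap, but 0 of its 5 tiles passed the filter for a test. At *SOX8* the mean was -1.64 and -0.74 in the naive and -0.88, -1.32 and -1.64 in the primed libraries, and the states overlapped.

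Of the 14 partners of *SOX1*, 5 were higher in primed and 0 in naive PSCs, against 9.81% and 15.2% of all listed fragments. The strongest was chr13:112343527-112346026, intergenic at 277.6 kb, with -3.54 and -2.14 in the naive and 0.66, 0.45 and 0.06 in the primed libraries. Its difference of 3.23 ± 0.38 (limma adjusted p = 9.1e-10) was the largest among all partners. Of the block near -534.2 kb, 3 of 5 fragments were higher in primed PSCs. The fragment with the highest score had -0.24 and -0.27 in the naive and 1.15, 0.57 and 1.24 in the primed libraries, a difference of 1.24 ± 0.38 (limma adjusted p = 0.011). The fragment at -525.1 kb differed by 1.68 ± 0.37 and that at -528.3 kb by 1.51 ± 0.36. The *PDX1* fragment differed by 1.17 ± 0.36 (limma adjusted p = 0.011), but by 0.74 with the log2 of the mean RPM over its tiles, which did not pass (limma adjusted p = 0.11), and by 0.76 with edgeR. The 2 *SOX1* partners listed in both states overlapped between the states and did not pass the test. Without naive replicate 1, only the fragment at 277.6 kb of these 5 passed, and the adjusted p of the fragment with the highest score was 0.13. That fragment also did not pass without naive replicate 2 or primed replicate 3 (adjusted p = 0.12 and 0.085, limma).

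All 3 primed-only partners of *SOX14* were higher in primed PSCs, against 9.81% of all listed fragments. The fragment at -656.4 kb had -1.25 and -1.39 in the naive and 1.2, -0.13 and 0.34 in the primed libraries, a difference of 1.79 ± 0.38 (limma adjusted p = 1.9e-04). The *LINC01391* fragment rose by 1.39 ± 0.38 and the *FOXL2* fragment by 1.24 ± 0.38 on the log2 scale, but neither passed without naive replicate 1 (limma adjusted p = 0.073 and 0.062) or naive replicate 2 (limma adjusted p = 0.086 and 0.22). The neighbouring fragment at -655.0 kb, whose interaction was listed in naive PSCs only, had -1.05 and -1.17 in the naive and 0.41, -1.32 and -0.07 in the primed libraries. These overlapped, and the difference of 0.79 ± 0.39 did not pass the test (limma adjusted p = 0.14). With the log2 of the mean RPM it was 1.19 and passed (limma adjusted p = 0.015).

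In the block of *SOX17* listed in both states, 5 of 6 fragments had less H3K4me1 in primed PSCs and 0 had more. Over all listed fragments these shares were 15.2% and 9.81%. The reads of the block summed to 118 over 4 fragments listed in naive and 186 over 6 listed in primed PSCs. Its highest score rose in primed PSCs, while the interaction at -306.8 kb went from 8.24 and 29 reads to 6.21 and 24 reads. The fragment at -306.8 kb had -0.54 and -0.68 in the naive and -2.94, -2.17 and -2.00 in the primed libraries, and fell by 1.76 ± 0.37 (limma adjusted p = 1.3e-04). The fragments at -295.1 and -293.3 kb fell by 1.5 ± 0.38 and 1.39 ± 0.36. Without naive replicate 1 or without naive replicate 2, 3 of the 6 were called, all of them lower in primed PSCs. The fragment with the highest score, at -289.8 kb, had -1.59 and -0.73 in the naive and -1.95, -2.16 and -1.95 in the primed libraries. Its difference of -0.86 ± 0.36 did not pass with limma (adjusted p = 0.077) and passed with edgeR (adjusted p = 0.0024) and with the log2 of the mean RPM (limma adjusted p = 0.0045). None of the 6 *RGS20* fragments passed the test, with differences from -0.29 to 0.22. Over 1 Mb away, the *ALKAL1* fragment rose by 1.33 ± 0.36 (limma adjusted p = 0.0033) and 1 of the pair of *MIR124-2* fragments rose by 1.28 ± 0.38 (limma adjusted p = 0.0077). The *NPBWR1* and *OSR2* fragments did not pass the test. Over all 9 partners past 1 Mb, 5 were higher in primed and 0 in naive PSCs, against 9.81% and 15.2% of all listed fragments. Without naive replicate 1, 0 of the 9 passed, and without naive replicate 2, 1 did.

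In the near block of *SOX21*, 7 of 18 fragments were higher in primed PSCs and 0 were higher in naive PSCs. Over all listed fragments these shares were 9.81% and 15.2%. Without primed replicate 1, and also without primed replicate 2, 1 fragment of the block was called higher in naive PSCs. Leaving out 1 library gave 2 calls higher in primed PSCs without naive replicate 1 and 4 without primed replicate 1. The largest differences were at 261.5 to 263.0 kb, in an intron of a non-coding gene. The fragment at 263.0 kb had -3.95 and -2.75 in the naive and -0.77, -0.58 and -0.99 in the primed libraries, a difference of 2.57 ± 0.37 (limma adjusted p = 1.5e-07). The fragment at 262.3 kb differed by 2.57 ± 0.38 and that at 261.5 kb by 2.10 ± 0.39, which did not pass without naive replicate 1 (limma adjusted p = 0.094). In the *ABCC4* block 0 of 10 fragments were higher in primed PSCs and 4 were higher in naive PSCs, against the same shares. The fragment chr13:95150887-95154214 at 440.0 kb had 1.2 and 1.07 in the naive and -0.66, -1.83 and -0.76 in the primed libraries, and fell by 2.22 ± 0.38 (limma adjusted p = 5.2e-06). The fragment with the highest score of *SOX21*, at 442.9 kb, had 0.72 and 0.26 in the naive and -0.19, -1.50 and -0.82 in the primed libraries, and fell by 1.33 ± 0.38 (limma adjusted p = 0.0058). It did not pass without naive replicate 1 or 2 (limma adjusted p = 0.21 and 0.055), and each of these settings left 2 calls in the block. The *SOX21* window printed above is from this fragment. In the *ABCC4* block more fragments were thus listed in primed PSCs while the called H3K4me1 differences were towards naive PSCs.

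Of the pair of fragments that *SOX9* contacted in both states, neither passed the test. The fragment at 418.5 kb had 0.75 and 1.01 in the naive and 1.23, 0.45 and 0.57 in the primed libraries, a difference of -0.13 ± 0.39 (limma adjusted p = 0.90). Of the partners contacted in naive PSCs only, that at 309.8 kb had -1.11 and -1.10 in the naive and -2.38, -2.25 and -2.90 in the primed libraries. It fell by 1.41 ± 0.36 (limma adjusted p = 0.0021), while that at 322.7 kb, with a difference of -0.82 ± 0.42, did not pass. The *SOX11* partner at -322.2 kb had -3.09 and -2.88 in the naive and -2.49, -2.32 and -2.16 in the primed libraries, and its difference of 0.66 ± 0.39 did not pass (limma adjusted p = 0.25). With the log2 of the mean RPM it was 1.03 and passed (limma adjusted p = 0.041).

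**Figure D4:**
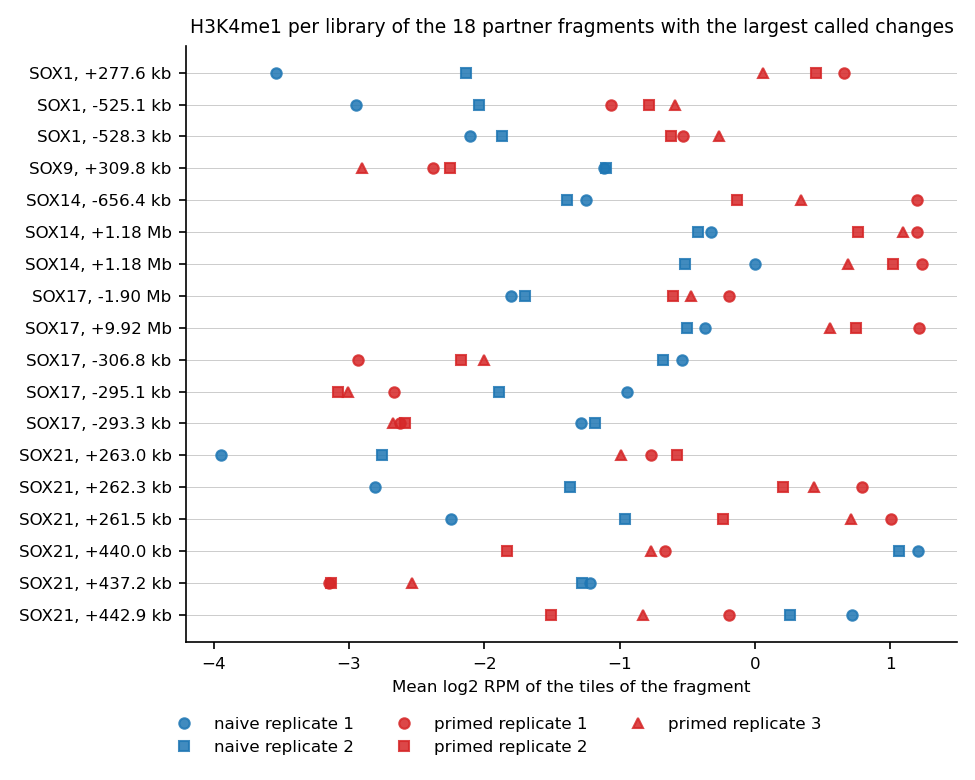
H3K4me1 (x axis, mean log2 RPM of a fragment's tiles) of each library for the up to 3 partner fragments per member and direction with the largest differences past the threshold (y axis, named by the distance from the transcript start). The 18 fragments were also picked for having no overlap between naive and primed libraries. They range from the fragment of SOX1 at 277.6 kb with a difference of 3.23 to that of SOX21 at 440.0 kb, which fell by 2.22.

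The gene deserts were then read tile by tile, beyond the few fragments with an interaction. The *SOX9* desert reaches 1941 kb to *KCNJ2*, a potassium channel gene, and 520 kb to *SLC39A11*, a zinc transporter gene. The *SOX11* desert reaches 1844 kb to *DCDC2C* and 1139 kb to *CMPK2*. Few of their fragments were listed: 2 of 629 and 10 of 134 HindIII fragments on the sides of *KCNJ2* and *SLC39A11* at *SOX9*, and 7 of 604 and 4 of 328 on the sides of *DCDC2C* and *CMPK2* at *SOX11*. The side of *SLC39A11* held 5 naive and 9 primed interactions, 3 of them in both states, and the bait of *SSTR2*, a somatostatin receptor gene beyond that desert, made 1 of the naive and 5 of the primed ones. The side of *DCDC2C* at *SOX11* held 1 naive and 6 primed interactions. Of these 6, 1 was that of *SOX11* and the others came from the baits of *NRIR*, *CMPK2*, *RSAD2* and *RNF144A* past the far end of the desert.

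H3K4me1 was higher in primed PSCs along both sides of the *SOX11* desert. On the side of *DCDC2C* the mean over 3687 tiles was 0.111 and 0.160 RPM in the naive and 0.224, 0.206 and 0.170 in the primed libraries. On the side of *CMPK2*, over 2278 tiles, it was 0.156 and 0.193 in the naive and 0.293, 0.263 and 0.244 in the primed libraries. The states did not overlap on either side, whereas over the whole genome they did, with 0.245 and 0.298 in the naive and 0.291, 0.266 and 0.234 in the primed libraries. Of 218 tiles that passed a filter of a log2 RPM above 0 in at least 2 of 5 libraries, 142 (65.1%) were higher in primed PSCs with limma, against 25.9% of all tested tiles, and 14 (6.42%) were higher in naive PSCs, against 26.1%. The filter favours tiles that are high in one state, so all tiles were also tested without it. Then 354 of 5965 (5.93%) were higher in primed and 30 (0.503%) in naive PSCs, against 3.78% and 4.19% of all tiles. The 14 tiles higher in naive PSCs became 3 without naive replicate 1, 5 without naive replicate 2 and 7 without primed replicate 3. Neighbouring tiles share reads and are not independent.

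The called tiles of the *SOX11* desert formed clusters, with gaps of at most 2 kb within a cluster. On the side of *DCDC2C* 27 clusters were higher in primed and 3 in naive PSCs, and on the side of *CMPK2* 31 and 5. The longest, chr2:5478501-5486500, had 12 tiles and lay at -209.9 kb. Its tile with the largest difference had -4.45 and -2.91 log2 RPM in the naive and 1.55, 1.54 and 1.42 in the primed libraries, a difference of 5.18 ± 0.62. These naive values are those of a single read and of an empty tile, so the size of the difference depends on library depth. Further clusters of 7 tiles each lay at 35.1 and 362.9 kb, and one of 8 tiles lay at 1113.1 kb, near *CMPK2*. None of the 218 tested tiles lay in a fragment with a listed interaction.

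In the *SOX9* desert, on the side of *SLC39A11*, the mean over 1038 tiles was 0.518 and 0.574 RPM in the naive and 0.425, 0.378 and 0.349 in the primed libraries, with no overlap. There 72 of 188 tested tiles (38.3%) were higher in naive and 25 (13.3%) in primed PSCs, against 26.1% and 25.9% of all tested tiles. On the side of *KCNJ2* the mean was 0.151 and 0.214 in the naive and 0.220, 0.195 and 0.172 in the primed libraries, which overlapped. There 16 of 116 tested tiles (13.8%) were higher in naive and 27 (23.3%) in primed PSCs, both below those shares of all tested tiles. The longest clusters higher in naive PSCs had 11 tiles each and lay at 338.2 and 455.2 kb, on either side of the shared interaction at 418.5 kb. The first, chr17:72456001-72462500, had a tile with 1.64 and 1.77 log2 RPM in the naive and -3.15, -3.13 and -4.73 in the primed libraries. These primed values are those of a single read, an empty tile and a single read, so the size of the difference depends on library depth. Clusters higher in primed PSCs had at most 4 tiles, among them those at 54.5, 261.5 and -658.0 kb. Of the 16 tested tiles in listed fragments, 5 were higher in naive and 0 in primed PSCs. Over both sides 88 of 304 tested tiles were higher in naive and 52 in primed PSCs, which became 41 and 34 without naive replicate 1 and 47 and 45 without naive replicate 2. Without the filter, 165 of 4919 tiles (3.35%) were higher in naive and 120 (2.44%) in primed PSCs, both below the 4.19% and 3.78% of all tiles.

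**Figure D5:**
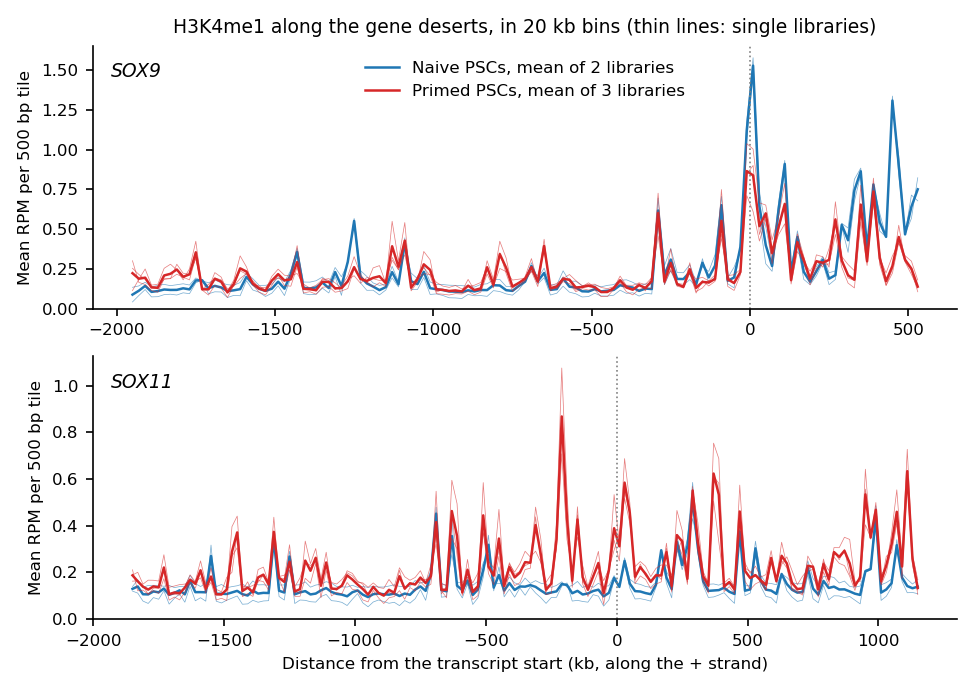
Mean H3K4me1 per 500 bp tile (y axis, RPM, in bins of 20 kb) along the gene deserts of SOX9 and SOX11 against the distance from the transcript start (x axis, kb), with thick lines for the mean of 2 naive and 3 primed libraries and thin lines for single libraries. The primed line of SOX11 stands above the naive line over most of both sides, with its highest bin at the cluster around -209.9 kb, and the naive line of SOX9 stands higher on the right, around 455.2 kb.

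The same values were read for lists of related genes. The 6 baited genes among 10 other SOX genes had 76 naive and 94 primed interactions, a ratio of 1.24, and 0 of them had at least 2 times as many in primed and 1 in naive PSCs, against 29.5% and 31.7% of all baits. *SOX3*, a SOXB1 gene, had 30 and 44 interactions, and *SOX4*, a SOXC gene, had 10 and 17. The neural progenitor genes had 90 and 275 interactions, a ratio of 3.06, and 11 of 15 had at least 2 times as many in primed and 2 in naive PSCs. The neural crest genes had 111 and 216, with 9 and 2 of 16 genes past that fold in primed and naive PSCs. The definitive endoderm genes had 69 and 118, with 5 and 3 of 9. The cartilage genes had 45 and 69, with 2 and 2 of 7, about the share of all baits. Interactions over 1 Mb numbered 12 in naive and 107 in primed PSCs for neural progenitor genes and 6 and 76 for neural crest genes. They numbered 0 and 32 for definitive endoderm, 7 and 34 for cartilage and 2 and 11 for other SOX genes. More interactions over 1 Mb in primed PSCs were therefore not particular to the members. By H3K4me1 of their baits, 5 of 16 baits of neural progenitor genes were higher in primed, among them *OLIG2* with a difference of 2.18, and 1 in naive PSCs, against 9.81% and 15.2% of all fragments tested. For the other lists these counts were 1 and 1 of 8 for other SOX genes, 1 and 1 of 17 for neural crest, 2 and 0 of 9 for definitive endoderm and 0 and 0 of 8 for cartilage genes. The naive state markers had 15 and 10 interactions and the primed state markers 31 and 57.

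Likeness of partners was measured as the share of partner fragments that a pair of baits had in common, among all their partners. It was highest for *SOX1* and the nearby bait at -14.9 kb, with 10 shared partners and a share of 0.208. *SOX17* was most like the bait of *TCEA1*, with 3 shared partners and a share of 0.103, and *SOX21* was most like the bait at 256.7 kb in its near block, with 5 and 0.0962. *SOX9*, *SOX11* and *SOX14* had no bait with at least 3 shared partners.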

How the data were processed

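PCHi-C, Hi-C and H3K4me1 CUT&RUN of naive and primed PSCs were used, while NANOG, SOX2 and input ChIP-seq were not used here. Samples were grouped by their labels. For PCHi-C the authors mapped read pairs on GRCh38 with HiCUP, combined 2 replicates in CHiCAGO and deposited interactions with a score of at least 5, beside a combined and rounded read number that is also a score rather than raw reads. The authors deposited Hi-C counts of di-tags per pair of 100 kb bins, 1 library per state and not balanced. CUT&RUN reads were trimmed by the authors (Trim Galore 0.5.0), mapped with Bowtie2 2.3.2 (the submitters' processing notes) and the authors deposited log2 RPM per 500 bp tile from SeqMonk, with an empty tile at 0.9 reads, so a shallow library has a higher floor.

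The members and lists were chosen with earlier results of these data known. The lists hold no gene names, in contrast to the rule that had been set, so promoters came from GENCODE 44. All 88413 listed fragments matched HindIII fragments of GRCh38. Fragments (mean log2 RPM of their tiles, no filter) and tiles (log2 RPM above 0 in at least 2 libraries) were tested with limma 3.58.1 (lmFit, eBayes with trend, R 4.3.3) over the whole table, with Benjamini-Hochberg adjustment at 0.05. Means over partners were compared by exact permutation tests. On simulated data limma recovered 86.9% of 20000 fragments changed by 2 on the log2 scale, with 658 false calls, and 0% of 20000 changed by 1. With 200 changed fragments it recovered 0% of those changed by 2 and 81.0% of those changed by 4. In a different simulation edgeR recovered 80.0% of 200 fragments changed by 2. The limma simulation used the spread of each fragment, whereas that of edgeR assumed a single spread for all fragments, not taken from these data. The recoveries of limma and edgeR therefore cannot be compared. All non-empty tile values were whole reads within 0.01, and edgeR 4.0.16 was run on these reads as an alternative chosen after seeing the data, as were the coverage correction and depth scaling of Hi-C and the count without *SOX21*. Hi-C expected values are the mean over all bin pairs of that chromosome and distance. Intervals are 95% and cover counting error only. The named genes are the members, each baited partner over 1 Mb, the 5 highest scores per member and state, up to 3 fragments per direction with the largest called H3K4me1 difference and no overlap between states, and the up to 3 baits with the most alike partners, at least 3 of them shared. Replicates were deposited as separate samples, and where nothing states separate cultures the p-values measure the spread between libraries.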

Additional observations from a re-analysis of the deposited data

How the results depend on the processing

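The settings moved counts and in part their balance between the states. None of the 18 named fragments reversed its direction. They were picked for large called differences without overlap between the states, so how often they kept their call is no measure for all partners. Without naive replicate 1, however, more partners were called higher in naive than in primed PSCs, the opposite of the full fit. The replicate numbers come from the labels and make 2 pairs, whose deviations correlated by 0.155 and 0.141, too few pairs to show that numbers pair the libraries. The fit with the replicate block gave 15 fragments of the members higher in primed and 9 in naive PSCs (18 and 10 without it), and lowered the *SOX11* desert tiles higher in naive PSCs from 14 to 7. Leaving out 1 library gave 4 to 19 fragments higher in primed and 6 to 11 in naive PSCs. In the *SOX9* desert it gave 34 to 62 tiles higher in primed and 41 to 101 in naive PSCs, and in the *SOX11* desert 108 to 152 and 3 to 17. The lowest counts came without naive replicate 1, apart from the 108 tiles, which came without naive replicate 2, and the 6 fragments, which came without either. A lone naive library is then assumed to vary like the primed ones. The counts without 1 library, here and above, have no share over all fragments or tiles from the same fit. They cannot be set against the shares of the full fit. With a mean log2 RPM above 0, which keeps 10 fragments of the members, 4 and 0 were called, and tiles under that filter gave 5 and 14 in the *SOX9* and 18 and 2 in the *SOX11* desert. The counts under this filter and with the replicate block are also given without a share over all fragments or tiles. They cannot be set against the shares of the full fit either. With no filter the tiles were 120 and 165, and 354 and 30. Of the 18 named fragments, all kept their call under the settings that use every library, where they could be fitted, while 9 lost it without naive replicate 1 and 5 without naive replicate 2.

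Leaving out 1 library gave differences of 0.0062 to 0.32 for the mean of all partners and of -0.99 to -0.80 for naive-only less primed-only partners. A CHiCAGO score of at least 10 raised the ratio of primed to naive interactions to 8.33 and left 2 interactions over 1 Mb, and a minimum of 10 reads left 1. With ends within 10 kb, 55.2% of primed interactions were also in naive PSCs. The ratio of 8.33 and this share have no counterpart over all baits at the same setting. *SOX9* reversed with a score of at least 10, to 1 more in primed PSCs, and *SOX14* with 10 reads, to a difference of -1. The Hi-C ratio over all 6 bin pairs past 1 Mb was 1.77, and 2.36 after correction for coverage. The depth of the shallow libraries limits low fragments most, and with 1 list per state the interaction counts have no replicate error.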
